A study of Homo sapiens with 9 samples.

Results

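The unfolded protein response and ATF4 genes are a module of 35 human genes, taken here by symbol: the sensors of the endoplasmic reticulum (ER), the transcription factors they act through, the chaperones and folding enzymes of the ER, and the amino acid genes that ATF4 is known to drive. A gene was measured by a probe set that carried its symbol and no other, and where several did, by the one with the highest mean signal over the 9 arrays. All 35 genes were found this way among 19775 symbols on 54675 probe sets, and all 35 passed the filter on dim probe sets, with mean signals from 37.0 (CHAC1) to 2311 (HSPA5). Members were listed by name, with earlier results of these data known, and no threshold on a measured value entered the rule.

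The study transfected U87 cells, an established human glioma line, with a miRNA duplex and measured total RNA on Affymetrix expression arrays, with 1 array per sample. Each of the 3 groups had 3 biological replicates. The duplex set the groups apart: miR-376a*A in the first, miR-376a*G in the second and a control miRNA in the last. All 3 groups shared the dose of 50 nM, the lipid reagent Lipofectamine RNAiMAX, 100000 cells and 24 h of incubation, and no untransfected or mock-treated group was analysed here. The samples therefore compare duplexes with each other in 1 cell line, at 1 dose and 1 time. A fold change of RNA from a whole culture cannot tell fewer expressing cells from less RNA per cell.

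In published work, miR-376a* is a miRNA whose precursor can be edited from adenosine to inosine, which is read as guanosine, and the letters A and G in the duplex names stand for the unedited and the edited form. They are called the A form and the G form below. RefSeq (GRCh38.p14) lists the mature miRNA under its present name, hsa-miR-376a-5p, at chr14:101040788-101040809 on the plus strand. It is printed here as the unedited sequence of the miRNA that both forms are named for, with the seed (bases 2 to 8) in capitals. The edited form and the control duplex are not printed.
hsa-miR-376a-5p: gUAGAUUCuccuucuaugagua

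The unfolded protein response is the cell's reaction to misfolded protein in the ER. Its sensors are the kinase PERK (gene EIF2AK3), the kinase and RNase IRE1 (ERN1) and ATF6, which is cut and moves to the nucleus; IRE1 splices the mRNA of XBP1. PERK, like other kinases of the translation factor eIF2, slows protein synthesis while ATF4 is translated more, and ATF4 and its partners raise DDIT3 (CHOP), amino acid synthesis and transport genes and feedback inhibitors. In glioma, as in other tumours, this pathway is known for its part in survival under poor nutrient and oxygen supply.

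Short DNA motifs known to bind these factors lie near the start sites of several members, and 5 promoters are printed to show them beside the values below. The 250 bases before each annotated start of 32 members (RefSeq, GRCh38.p14; without PDIA3, SHMT2 and NUPR1) were searched on both strands for 4 motifs. The ER stress element, which is CCAAT, 9 bases of any kind and CCACG, was in 0.074% of 35116 promoters of the same length and in those of 7 members: HSPA5, HSP90B1, CALR, CANX, PDIA6, CRELD2 and XBP1. ERSE-II, which is ATTGG, 1 base of any kind and CCACG, was in 0.0513% of promoters and in those of HYOU1 and SDF2L1. The core of the UPR element, TGACGTGG, was in 0.612% and, among members, in HYOU1, where it overlaps a match of ERSE-II. The core of the C/EBP-ATF element that ATF4 binds, TGATGNAA, was in 3.14% and in ASNS, ATF3 and CHAC1. A match says that the letters are there; binding was not measured. Matches are in capitals below; XBP1 is at chr22:28800570-28800819, HSPA5 at chr9:125241344-125241593, HYOU1 at chr11:119057206-119057455 and ASNS at chr7:97872409-97872658, all on the minus strand, and CHAC1 at chr15:40953221-40953470 on the plus strand. XBP1 and HSPA5 carry the ER stress element, HYOU1 carries 2 ERSE-II matches and the UPR element core, and ASNS and CHAC1 carry the C/EBP-ATF core (on the minus strand of the printed sequence in CHAC1).
XBP1: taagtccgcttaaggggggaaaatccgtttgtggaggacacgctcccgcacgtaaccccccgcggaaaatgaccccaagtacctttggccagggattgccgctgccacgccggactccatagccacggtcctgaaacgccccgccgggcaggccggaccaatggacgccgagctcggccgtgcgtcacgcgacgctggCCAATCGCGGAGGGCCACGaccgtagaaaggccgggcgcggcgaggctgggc
HSPA5: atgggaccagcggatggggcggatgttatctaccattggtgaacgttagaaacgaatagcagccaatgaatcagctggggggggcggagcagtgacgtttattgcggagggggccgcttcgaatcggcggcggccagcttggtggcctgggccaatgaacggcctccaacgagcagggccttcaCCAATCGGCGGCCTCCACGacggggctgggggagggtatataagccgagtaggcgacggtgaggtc
HYOU1: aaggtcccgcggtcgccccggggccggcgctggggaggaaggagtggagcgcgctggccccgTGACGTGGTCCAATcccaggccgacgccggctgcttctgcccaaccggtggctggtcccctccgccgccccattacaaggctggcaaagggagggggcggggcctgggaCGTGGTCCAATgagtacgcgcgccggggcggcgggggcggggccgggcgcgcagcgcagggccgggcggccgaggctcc
ASNS: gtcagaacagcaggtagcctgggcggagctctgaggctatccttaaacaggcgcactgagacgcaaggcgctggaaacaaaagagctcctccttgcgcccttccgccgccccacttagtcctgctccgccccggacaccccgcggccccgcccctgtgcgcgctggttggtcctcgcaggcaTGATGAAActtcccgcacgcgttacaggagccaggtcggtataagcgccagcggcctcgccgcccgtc
CHAC1: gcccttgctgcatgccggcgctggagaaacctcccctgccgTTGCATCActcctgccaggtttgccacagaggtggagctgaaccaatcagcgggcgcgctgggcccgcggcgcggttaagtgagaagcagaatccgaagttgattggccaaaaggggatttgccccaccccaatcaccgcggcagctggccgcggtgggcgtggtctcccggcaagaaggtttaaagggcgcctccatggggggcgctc

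The deposited values are signal intensities on a linear scale, 1 per probe set and array, and a signal is comparable between arrays for the same probe set, not between genes. Differences below are on log2(signal + 16), where the offset pulls differences of dim probe sets toward 0. They were tested with limma in 1 fit of 20068 features over the 9 arrays, with p-values adjusted by the Benjamini-Hochberg method over all features, and a gene passed at an adjusted p under 0.05. The trimmed mean signal was between 100.009 and 100.011 on every array, and the median signal between 17.9 and 20.3 (19.6 to 20.3 with the A form, 17.9 to 19.2 with the G form). Arrays of 1 group correlated at 0.987 to 0.995. Control replicate 1 stood apart most, with a standard deviation of 0.164 around its group mean over all features, against 0.102 to 0.145 on the other 8 arrays, and it was the lowest of the 9 arrays for 14 of the 35 members, against 21.6% of all features. The 3'/5' signal ratio of GAPDH, a sign of RNA integrity, was 0.866 to 0.882 with the G form, 0.890 to 0.896 with the A form and 0.886 to 0.907 with the control; its part in the differences was not tested. All 6 markers listed for the glioma line were above the filter on dim probe sets: VIM, CD44, TNC and S100A6 read 1494 or more on every array, NES 63.9 to 105 and CHI3L1 98.0 to 152. Of the 4 markers of astrocytes and the glial lineage, GFAP and S100B stayed under 2.5, below the filter, and OLIG2 (15.2 to 23.5) and SOX2 (14.4 to 26.1) were just above it. Markers of other cell types above the filter were SNAP25 and RBFOX3 of 3 for neurons, CD3E of 3 for immune cells, EPCAM of 3 for epithelium and PECAM1 of 3 for endothelium. SNAP25 read 293 to 757 and PECAM1 41.3 to 87.3, and the others read at most 22.3. The part of such markers in the differences was not tested.

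Both duplexes went with changes in the module, and the changed genes differed in part. With the G form, DDIT3 more than doubled, all 5 measured enzymes of serine, asparagine and one-carbon metabolism rose (3 of 5 when certain single arrays were left out), and ATF6 fell 1.90-fold. With the A form, DDIT3 did not pass (log2 difference 0.25; without control replicate 2 it was 0.34 and passed), both subunits of the large neutral amino acid transporter fell, and EIF2AK3 and ATF6 fell. XBP1, ATF4, MANF, PHGDH and MTHFD2 rose with both. The MANF calls ended when any 1 replicate of the form compared was left out. Those of PHGDH and MTHFD2 with the A form ended under 13 and 14 of 20 alternatives.

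Against the control, 16 of 35 members passed with the A form, 9 higher and 7 lower, which is 45.7% of members against 20.8% of all features (10.8% higher and 10% lower). With the G form 14 members passed, 11 higher and 3 lower, which is 40% against 24.9% of all features (11.8% higher and 13.1% lower). The background is unlike the members: 13697 of the 20068 features carry a single symbol. Features were tested from a signal near 11.3, while member means start at 37.0. Shares over features of matched signal were not taken. The median log2 difference of the members was 0.08 with the A form and 0.10 with the G form, against 0.04 and -0.00 over all features. The 2 comparisons share the control arrays, so their values stand side by side here and their overlap is not a result. Groups did not overlap for 21 members with the A form (60%, against 36.7% of all features) and for 19 with the G form (54.3%, against 38.3%, or 18.6% higher and 19.7% lower). The 16 calls fell to 8 without A replicate 2, to 8 without A replicate 3 and to 10 without control replicate 3. The 14 calls fell to 9 without G replicate 2 and to 8 without G replicate 3. The split also moved with the scaling: with the A form it was 6 higher and 8 lower after quantile normalization and 5 and 7 after centring each array on its median.

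**Figure D1:**
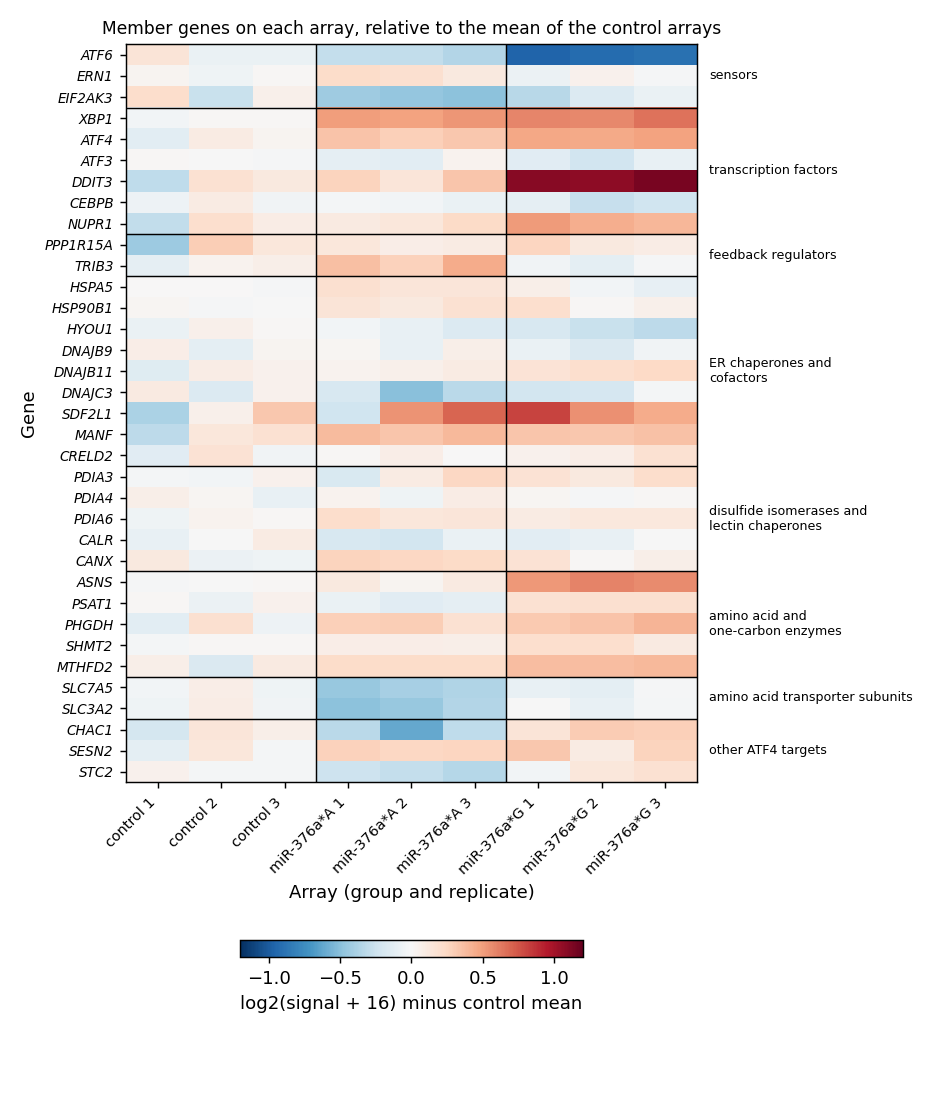
Each row is a member gene and each column an array; colour is log2(signal + 16) minus the mean of the 3 control arrays for that gene, red higher and blue lower, with rows grouped by role. The darkest cells are DDIT3 (red) and ATF6 (blue) on the 3 miR-376a*G arrays. SLC7A5, SLC3A2 and STC2 are bluer on the 3 miR-376a*A arrays than on the other arrays, as are EIF2AK3 and CHAC1. Control replicate 1 differs from the other control arrays for DDIT3, PPP1R15A, SDF2L1 and MANF.

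By the chosen probe sets, 2 of 3 sensors fell with the A form and 1 with the G form, and none rose. That is 66.7% and 33.3% passing, against 20.8% and 24.9% of all features. At an unadjusted p under 0.05 (limma) ERN1 was higher with the A form, and no sensor was higher with the G form. Another, dimmer probe set of ERN1 passed higher with both forms, as given below. ATF6 (226941_at), the membrane-bound transcription factor, read 373, 372 and 356 with the A form, 228, 235 and 239.9 with the G form and 515, 434 and 434 with the control. The 3 groups did not overlap: every G array was below every A array, and every A array below every control array. The log2 difference from the control was -0.93 (SE 0.076, adjusted p = 2.64e-06) with the G form, a 1.90-fold decrease with a 95% interval of -1.09 to -0.76, and -0.31 (SE 0.076, adjusted p = 0.0113) with the A form; the A form was higher than the G form, by 0.61 (SE 0.076, adjusted p = 0.000104). The other 3 probe sets of ATF6 were lower too, with log2 differences of -0.49, -1.01 and -0.74 with the G form and -0.25, -0.50 and -0.19 with the A form; all 3 passed with the G form and 1 with the A form. Without A replicate 3 the call with the A form ended (adjusted p = 0.0532).

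EIF2AK3 (218696_at), which encodes PERK, read 169, 164 and 161 with the A form, 181, 206 and 219 with the G form and 271, 190.2 and 242 with the control. All A arrays were below all control arrays, while the G arrays overlapped the controls, of which replicate 2 was the lowest. Its log2 difference was -0.46 (SE 0.11, adjusted p = 0.0106) with the A form and -0.19 (SE 0.11, adjusted p = 0.239) with the G form. The forms did not pass against each other (-0.27, adjusted p = 0.114). They did without control replicate 1 (adjusted p = 0.0417), without control replicate 2 (0.0325), with array weights, whose estimate did not converge (0.00889), or when only the 2 forms were fitted (0.0165). Without control replicate 2 the G form also passed against the control (-0.32, adjusted p = 0.0187), as it did with array weights (-0.21, 0.0124), so 2 of 3 sensors then fell with the G form. ERN1, which encodes IRE1, passed in no comparison by its chosen probe set with all arrays weighted alike. Its log2 differences were 0.18 with the A form and -0.01 with the G form. Probe set 235745_at, with a mean signal of 35.3, was higher with both (limma, 0.33, adjusted p = 0.0164 and 0.38, adjusted p = 0.00638). Probe set 207061_at gave -0.08 and 0.03 and did not pass.

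Of the 6 transcription factors, 2 rose with the A form and none fell (limma; none fell at an unadjusted p under 0.05), and with the G form 4 rose and 1 fell. That is 33.3% and 83.3% passing, against 20.8% and 24.9% of all features. Under other scalings CEBPB also fell with the A form (quantile normalization) and did not pass with the G form (median centring). DDIT3 (209383_at) encodes CHOP, the factor linked to cell death under lasting ER stress, and read 273, 250.3 and 287 with the A form, 498, 491 and 512 with the G form and 179, 257 and 245 with the control. The G arrays lay far above all others, while the A arrays overlapped the controls, whose replicate 1 was the lowest of the 9. The log2 difference was 1.10 (SE 0.11, adjusted p = 1.47e-05) with the G form, a 2.15-fold increase with a 95% interval of 0.86 to 1.34 on the log2 scale, and 0.25 (SE 0.11, adjusted p = 0.131) with the A form, which passed without control replicate 2 (0.34, adjusted p = 0.0414). By the chosen probe sets, DDIT3 was the only member that passed with a change of 2-fold or more in any comparison. A dimmer probe set of ATF6 (217550_at) also passed at that size with the G form (-1.01). The A form was lower than the G form by 1.81-fold (-0.85 (SE 0.11, adjusted p = 0.000144)).

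ATF4 (200779_at), the factor translated when eIF2 is phosphorylated, read 930.0, 895 and 920.4 with the A form, 1018, 1009 and 1026 with the G form and 668, 783 and 748 with the control. Controls, A arrays and G arrays followed each other without overlap. The log2 difference was 0.32 (SE 0.065, adjusted p = 0.00445) with the A form and 0.47 (SE 0.065, adjusted p = 0.000229) with the G form. Between the forms it was -0.15 and did not pass (adjusted p = 0.137). It did without control replicate 1 (adjusted p = 0.0178), with array weights (0.0143) or when only the 2 forms were fitted (0.0129). XBP1 (200670_at), whose mRNA is the splicing substrate of IRE1, read 423, 416 and 430.4 with the A form, 449, 444 and 470.3 with the G form and 287, 296 and 297 with the control. All 6 arrays of the 2 forms were above the controls, by 1.42-fold with the A form (0.50 (SE 0.061, adjusted p = 8.54e-05)) and 1.52-fold with the G form (0.60 (SE 0.061, adjusted p = 1.54e-05)). The forms did not pass against each other (-0.10, 95% interval -0.23 to 0.03). Splicing of XBP1 was not analysed here. Its second tested probe set, with a mean signal of 21.8, was higher too (0.24 and 0.40) and did not pass.

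NUPR1 (209230_s_at), a small stress-induced chromatin protein, read 171, 175 and 188 with the A form, 233, 220.0 and 213 with the G form and 126, 185 and 169.6 with the control. The G arrays were above all others, with a log2 difference of 0.45 (SE 0.11, adjusted p = 0.00972) from the control, while the A form gave 0.16 (adjusted p = 0.351) and overlapped it. The forms did not pass against each other (-0.29, adjusted p = 0.0856). They did without control replicate 1 (adjusted p = 0.00435), without control replicate 2 (0.0455), after median centring (0.0487), with array weights (0.00651) or when only the 2 forms were fitted (0.00426). CEBPB (212501_at), a partner of CHOP and ATF4, read 1677, 1670.5 and 1620.2 with the A form, 1581, 1409 and 1445 with the G form and 1638, 1835 and 1663 with the control. Signals with the G form were just below the rest, with a log2 difference of -0.21 (SE 0.064, adjusted p = 0.0305). That call ended without A replicate 2, G replicate 2, G replicate 3 or control replicate 2 (adjusted p from 0.0522 to 0.135). ATF3, a stress-induced factor downstream of ATF4, passed in no comparison with all arrays weighted alike (-0.06 with the A form and -0.15 with the G form).

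**Figure D2:**
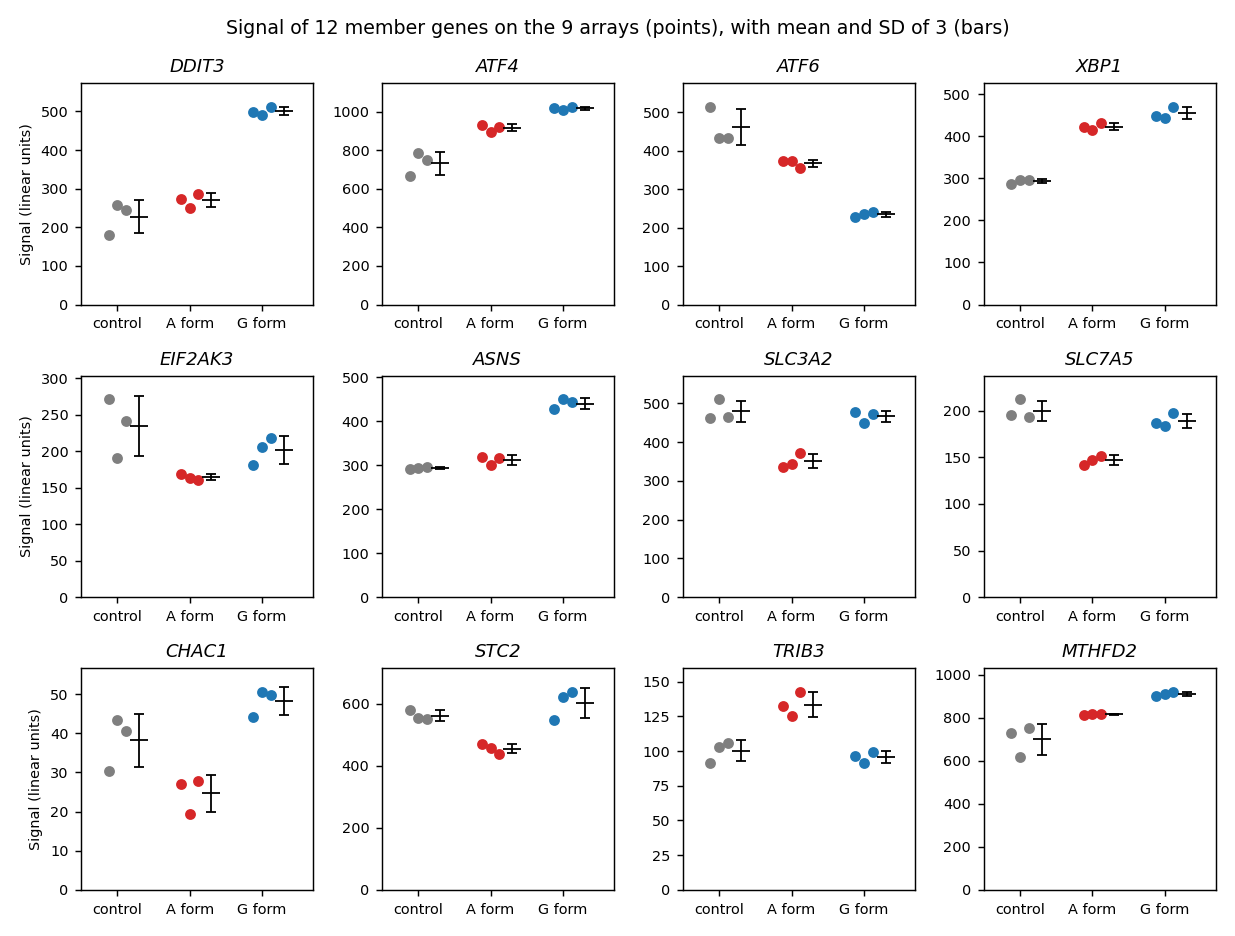
Linear signal of 12 members on the 9 arrays, 1 panel per gene, with axes from 0; points are arrays and bars the mean and SD of 3. DDIT3 and ASNS are high with the G form alone, SLC3A2, SLC7A5 and STC2 are low with the A form alone, ATF6 steps down from control to A to G, and ATF4 and XBP1 are above the control with both forms.

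The feedback regulators are PPP1R15A (GADD34), which brings phosphatase to eIF2, and TRIB3, a pseudokinase that binds ATF4. With the A form 1 of 2 rose and with the G form neither passed (limma; neither had an unadjusted p under 0.05). Over all features 20.8% and 24.9% passed. TRIB3 (218145_at) read 133, 125 and 143 with the A form, 96.7, 91.2 and 99.2 with the G form and 91.8, 103 and 106 with the control. The A arrays were above all others, and the G arrays overlapped the controls. The log2 difference was 0.36 (SE 0.081, adjusted p = 0.00734) with the A form, -0.06 (adjusted p = 0.661) with the G form and 0.42 (SE 0.081, adjusted p = 0.00307) between them. Its other tested probe set, with a mean signal of 15.1, gave 0.12 with the A form, and the call against the control ended when the probe sets were averaged (adjusted p = 0.0654). PPP1R15A read 411 and 365 on control replicates 2 and 3 and 241 on control replicate 1, and gave 0.10 and 0.16 with the 2 forms, neither of which passed.

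Of the 9 ER chaperones and their cofactors, 1 rose and 1 fell with the A form, which is 22.2% against 20.8% of all features, and 2 rose and 1 fell with the G form, 33.3% against 24.9% (1 and 1 after quantile normalization). Without control replicate 3 the A form had 1 call, and 0 were left without A replicate 2 or A replicate 3 (limma; 3 or 2 higher and 1 lower at an unadjusted p under 0.05). The G form had 1 call without G replicate 1 and 0 without G replicate 2 or G replicate 3 (limma; 3 higher and 1 lower). The median log2 difference was 0.07 with the A form and 0.09 with the G form. HSPA5 (211936_at) encodes BiP, the main ER chaperone and the protein that holds the sensors inactive, and read 2557, 2474 and 2462 with the A form, 2346, 2179 and 2083 with the G form and 2238, 2245 and 2211 with the control. It did not pass against the control with the A form (0.16 (SE 0.056, adjusted p = 0.058)) or the G form (-0.02 (SE 0.056, adjusted p = 0.836)). The A form was higher than the G form by 0.18 (SE 0.056, adjusted p = 0.0393), a call that ended under 11 of 20 alternatives, among them the absence of any A replicate, G replicate 2, G replicate 3 or control replicate 3 (adjusted p from 0.055 to 0.178). Against the control the A form passed without control replicate 1 (adjusted p = 0.044), without G replicate 1 (0.0467), with array weights (0.00174) or with a filter at the 60th percentile (0.0457). A second probe set of HSPA5, with a mean signal of 240.9, was lower with the G form (-0.67, adjusted p = 1.62e-05) and gave 0.00 with the A form. On the mean of the probe sets HSPA5 passed lower with the G form (-0.35, adjusted p = 0.000669).

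MANF (202655_at), a secreted ER-resident protein and a known target of the response, read 1080.3, 1045 and 1088 with the A form, 1049, 1042 and 1058 with the G form and 664, 909 and 939 with the control. All arrays of both forms were above all controls, of which replicate 1 was far lower than the others. It rose by 0.37 (SE 0.10, adjusted p = 0.0243) with the A form and 0.34 (SE 0.10, adjusted p = 0.0303) with the G form, and the first call ended without any single A replicate (adjusted p from 0.0572 to 0.0753), the second without any single G replicate (0.0753 to 0.0841). Without control replicate 1 both calls held, at 0.21 and 0.18. DNAJC3 (225284_at), a co-chaperone of BiP that also restrains PERK, read 626, 502 and 569.9 with the A form, 613, 623 and 707 with the G form and 775, 638 and 745 with the control. The A arrays were below the controls, with -0.34 (SE 0.095, adjusted p = 0.0243); without A replicate 2, A replicate 3, control replicate 1 or control replicate 3 the adjusted p was 0.0539 to 0.115.

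DNAJB11 (223054_at), another co-chaperone of BiP, read 1052, 1065 and 1095 with the A form, 1146, 1180.2 and 1208 with the G form and 922, 1089 and 1059.6 with the control. The G arrays were above all others, with 0.20 (SE 0.068, adjusted p = 0.0437) against the control, a call that ended without any 1 of 8 arrays (all but control replicate 2; adjusted p from 0.0539 to 0.14) and after quantile normalization. HYOU1 (200825_s_at), the ER member of the large Hsp70 family, read 298, 287 and 272 with the A form, 267, 251 and 243 with the G form and 289, 321 and 310.5 with the control. In contrast to DNAJB11, the G arrays were below all others, with -0.26 (SE 0.071, adjusted p = 0.0185), a call that ended without G replicate 2, G replicate 3 or control replicate 3 (adjusted p from 0.0516 to 0.0809). SDF2L1 (218681_s_at), an ER chaperone cofactor, varied most between replicates and read 174, 310.2 and 347 with the A form, 377, 311 and 289 with the G form and 156, 218 and 264 with the control. Its G arrays were above the controls (0.60 (SE 0.22, adjusted p = 0.0626)), which did not pass with all arrays. It did without A replicate 1 (adjusted p = 0.0157), without control replicate 3 (0.76, 0.0409), with the replicate block (0.0458), with a filter at the 60th percentile (0.0494) or when only the 2 groups were fitted (0.0228). SDF2L1 gave 0.33 with the A form. Without A replicate 1, its lowest array of that form, this became 0.62 (adjusted p = 0.0335). HSP90B1 (GRP94), DNAJB9 and CRELD2 passed in no comparison with all arrays weighted alike and 1 probe set per gene, with log2 differences of 0.15, 0.00 and 0.03 with the A form and 0.09, -0.10 and 0.10 with the G form.

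Of the 5 disulfide isomerases and lectin chaperones, 2 rose with the A form, although none did after quantile normalization and 1 did after median centring, and none passed with the G form (limma; 1 had an unadjusted p under 0.05). Over all features 20.8% passed with the A form and 24.9% with the G form. CANX (200068_s_at), the membrane lectin chaperone calnexin, read 2471, 2436 and 2404 with the A form, 2308, 2072 and 2157 with the G form and 2228, 1952 and 1973 with the control. The A arrays were above all others, and it rose by 0.25 (SE 0.064, adjusted p = 0.0152) with the A form. Its other 3 tested probe sets were higher with the A form (0.52, 0.33 and 0.77) and with the G form (0.46, 0.38 and 0.67), where the chosen one gave 0.09. On the mean of the probe sets CANX passed with the G form too (0.40, adjusted p = 0.00242), as it did without control replicate 1 (0.15, adjusted p = 0.0472). The call with the A form ended without A replicate 1, A replicate 2 or control replicate 3 (adjusted p from 0.0527 to 0.0578) and after quantile normalization (0.204). PDIA6 (208639_x_at), a disulfide isomerase that binds IRE1 and PERK, read 2024, 1917 and 1933 with the A form, 1870.3, 1908 and 1902 with the G form and 1683, 1791 and 1759.9 with the control. The small rise with the A form (0.16 (SE 0.052, adjusted p = 0.0417)) ended under 14 of 20 alternatives, among them the absence of any 1 array but control replicate 1 or 2 (adjusted p from 0.0551 to 0.14), and its other 3 probe sets gave 0.10, -0.04 and 0.04. PDIA3, PDIA4 and CALR passed in no comparison, except that CALR was lower with both forms when arrays were weighted and with the A form without control replicate 1 (-0.17 with all arrays and -0.21 without it, adjusted p = 0.0268).

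The amino acid and one-carbon enzymes were the group in which every member passed with the G form: all 5 rose, with a median log2 difference of 0.36 against -0.00 over all features (3 of 5 passed after quantile normalization, 5 after median centring, and 3 without A replicate 2, A replicate 3 or any single G replicate). Over all features 24.9% passed with the G form. With the A form 2 of 5 rose (40%, against 20.8% of all features), 1 after quantile normalization and none after median centring, with a median of 0.08. No call was left without any single A or G replicate (limma; 2 were higher at an unadjusted p under 0.05). On single arrays the mean deviation of the 5 genes from their overall means was 0.17 to 0.19 with the G form, -0.05 to -0.02 with the A form and -0.16 to -0.12 with the control. ASNS (205047_s_at), asparagine synthetase and a standard readout of ATF4, read 319.5, 299 and 317 with the A form, 427, 449.9 and 444 with the G form and 291, 293 and 296 with the control. Signals of the G form were far above the rest, while the A arrays lay just above the controls. The log2 difference was 0.56 (SE 0.062, adjusted p = 3.44e-05) with the G form, a 1.47-fold increase, and 0.08 (SE 0.062, adjusted p = 0.37) with the A form; the A form was lower than the G form, with a log2 difference of -0.48 (SE 0.062, adjusted p = 0.000164).

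PHGDH and PSAT1 catalyse the opening steps of serine synthesis from a glycolytic intermediate. PHGDH (201397_at) read 410.5, 414 and 383 with the A form, 419, 429 and 449 with the G form and 304, 384 and 321 with the control. The G arrays were above all controls, and the A arrays were too except that A replicate 3 was just below control replicate 2. It rose by 0.36 (SE 0.084, adjusted p = 0.00778) with the G form and by 0.25 (SE 0.084, adjusted p = 0.0478) with the A form, the latter a call that ended under 13 of 20 alternatives, among them the absence of any 1 array but control replicate 2 (adjusted p from 0.0648 to 0.148). PSAT1 (223062_s_at) read 662, 638 and 651 with the A form, 802, 804 and 806 with the G form and 710.2, 671 and 729 with the control. The G arrays were above all others and the A arrays below all others. The rise with the G form was 0.19 (SE 0.058, adjusted p = 0.0301), and it ended without A replicate 2, A replicate 3, any single G replicate or control replicate 2 (adjusted p from 0.0519 to 0.0955). With the A form it was -0.11 and did not pass (adjusted p = 0.206), while the A form was lower than the G form, with -0.30 (SE 0.058, adjusted p = 0.003).

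SHMT2 and MTHFD2 are mitochondrial enzymes of folate-linked one-carbon metabolism. MTHFD2 (201761_at) read 814, 816 and 816 with the A form, 903, 908 and 920.0 with the G form and 731, 616 and 752 with the control. The 3 groups followed each other without overlap, and control replicate 2 was the lowest array. It rose by 0.38 (SE 0.073, adjusted p = 0.00227) with the G form and by 0.22 (SE 0.073, adjusted p = 0.048) with the A form; the latter call ended under 14 of 20 alternatives, among them the absence of any 1 array but control replicate 1 or 3 (adjusted p from 0.0671 to 0.125). SHMT2 (214096_s_at) read 919.7, 924 and 918 with the A form, 1008, 1002 and 943 with the G form and 857, 878 and 881 with the control. The G arrays were above all others and the A arrays above the controls, by small steps: 0.17 (SE 0.055, adjusted p = 0.0392) with the G form and 0.08 (SE 0.055, adjusted p = 0.362) with the A form. The call with the G form ended under 12 of 20 alternatives, among them the absence of any 1 array but control replicate 1 or 2 (adjusted p from 0.0521 to 0.143).

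The 2 subunits of the large neutral amino acid transporter fell with the A form and did not pass with the G form (limma; neither had an unadjusted p under 0.05), under both other scalings as well. Over all features 20.8% passed with the A form and 24.9% with the G form. SLC7A5 (201195_s_at), its light chain LAT1, read 142, 148 and 152 with the A form, 187, 183 and 197 with the G form and 195, 212 and 193 with the control. SLC3A2 (200924_s_at), the heavy chain CD98 that it shares with other transporters, read 336, 345 and 372 with the A form, 479, 451 and 472 with the G form and 463, 511 and 466 with the control. For both genes all A arrays were below all other arrays, and G arrays and controls overlapped. SLC7A5 fell by 1.33-fold (-0.41 (SE 0.071, adjusted p = 0.00152)) and SLC3A2 by 1.35-fold (-0.43 (SE 0.068, adjusted p = 0.000694)). With the G form the log2 differences were -0.07 (95% interval -0.23 to 0.08) and -0.04 (-0.19 to 0.11). Between the forms, the A form was lower, with -0.33 (SE 0.071, adjusted p = 0.00585) for SLC7A5 and -0.40 (SE 0.068, adjusted p = 0.00135) for SLC3A2.

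The other 3 ATF4 targets split: with the A form SESN2 rose and CHAC1 and STC2 fell (1 of 3 passed without A replicate 2, A replicate 3 or control replicate 3), and with the G form none passed with all arrays (limma; SESN2 had an unadjusted p under 0.05). Over all features the shares passing were 20.8% and 24.9%. CHAC1 (219270_at), which breaks down glutathione, read 27.1, 19.3 and 27.7 with the A form, 44, 50.6 and 49.9 with the G form and 30.4, 43.4 and 40.6 with the control. The A arrays were below the controls and the G arrays above them, at the lowest signals of the module. The log2 difference was -0.41 (SE 0.12, adjusted p = 0.027) with the A form, 0.25 (SE 0.12, adjusted p = 0.147) with the G form and -0.66 (SE 0.12, adjusted p = 0.00179) between them. The call with the A form ended without A replicate 2, control replicate 2 or control replicate 3 (adjusted p from 0.0747 to 0.116); the call between the forms held under all 20 alternatives, at -0.34 with an offset of 64.

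STC2 (203438_at), a secreted glycoprotein induced by ER stress, read 471, 457 and 439.7 with the A form, 548, 621 and 639 with the G form and 582, 554 and 551 with the control. The A arrays were below all others, with -0.29 (SE 0.07, adjusted p = 0.0106) against the control and -0.39 (SE 0.07, adjusted p = 0.00196) against the G form, while the G form gave 0.09 against the control. A second probe set gave 0.01 with the A form and 0.73 with the G form (adjusted p = 5.43e-05). On the mean of the probe sets STC2 rose with the G form (0.41, adjusted p = 0.000426). The call with the A form ended without A replicate 3 (adjusted p = 0.0531) and with the mean of the probe sets (0.117). SESN2 (223195_s_at), a leucine-sensing stress protein, read 213, 209.9 and 210.1 with the A form, 221, 187 and 213 with the G form and 159, 193 and 170.5 with the control. The A arrays were above the controls, and of the G arrays replicate 2 was below control replicate 2. It rose by 0.26 (SE 0.084, adjusted p = 0.046) with the A form, a call that ended under 12 of 20 alternatives, among them the absence of any 1 array but G replicate 2 or control replicate 2 (adjusted p from 0.0537 to 0.116), and gave 0.23 (SE 0.084, adjusted p = 0.0646) with the G form. That difference passed without G replicate 2 (adjusted p = 0.0452), without control replicate 2 (0.0196), after median centring (0.0367), with a filter at the 60th percentile (0.0497), with array weights (0.00417) and on the mean of the probe sets (0.34, 0.00591). Its second probe set passed with both (0.45 and 0.45).

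**Figure D3:**
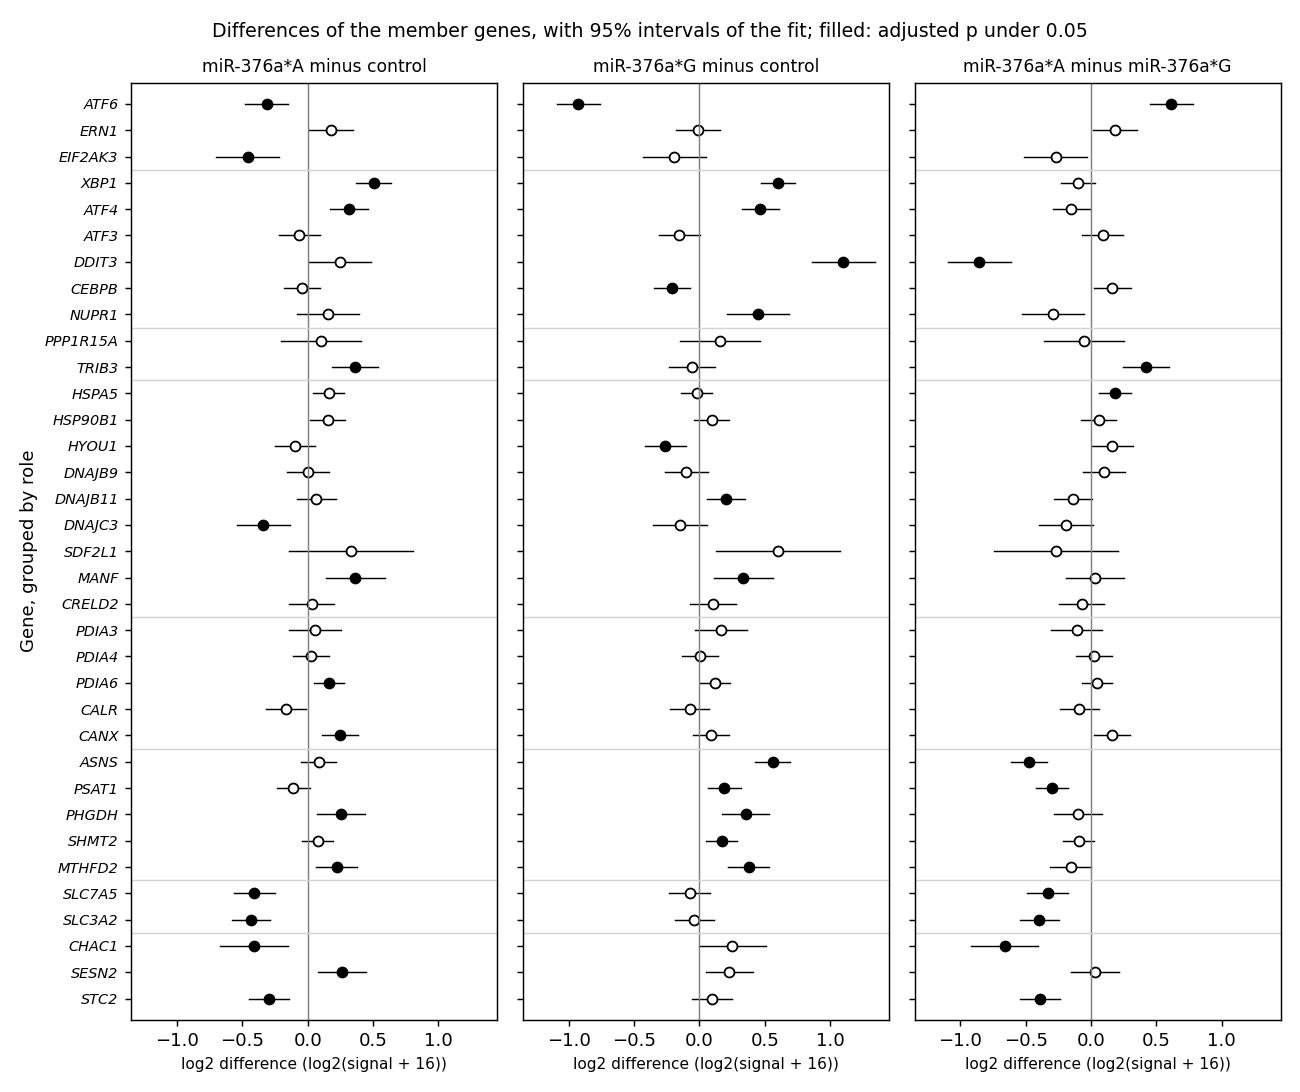
Log2 difference of each member with its 95% interval in the 3 comparisons, grouped by role; filled points passed an adjusted p under 0.05 over all 20068 features. The interval of DDIT3 with the G form runs from 0.86 to 1.34, and most filled points between the forms lie left of 0, where the A form is lower.

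The direct comparison asked which members the 2 forms left at different levels. It called 10 of 35, which is 28.6% against 18.3% of all features: 3 higher with the A form (8.57%, against 10.4%) and 7 lower (20%, against 7.9%). Lower with the A form were DDIT3, CHAC1, ASNS, SLC3A2, STC2, SLC7A5 and PSAT1, from -0.85 to -0.30, and higher were ATF6, TRIB3 and HSPA5, from 0.18 to 0.61. The median of all members was -0.09 against 0.03 over all features. Groups did not overlap for 23 members (65.7%, against 42.2%). The calls of all 10 but HSPA5 held under all 20 alternatives. Without control replicate 1, which has no part in the difference itself but enters the estimate of the spread, 17 members passed. Over all features, 56.8% of the calls were higher with the A form, and 41.0% after centring each array on its median, so the shares of higher and lower calls depend on the scaling; among members the 7 lower calls became 8.

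All 5 enzymes had lower signals with the A form than with the G form, and ASNS and PSAT1 passed. Both transporter subunits passed in the same direction, as did 2 of the 3 other ATF4 targets, CHAC1 and STC2. TRIB3, also known as an ATF4 target, was the member with this background that passed higher with the A form. SESN2 (0.03) and ATF3 (0.09) were higher with the A form too and did not pass. ATF4 itself was lower with the A form on all arrays, and that difference did not pass.

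Other genes of the pathway, grouped by function, were described by counts against the background given above. Among 28 tested non-member genes of ER folding and the secretory response, 25% passed with the A form and 28.6% with the G form. The shares over all features were 20.8% and 24.9%. With the A form 6 rose and 1 fell, and with the G form 3 rose and 5 fell. By smallest p these were ERO1A (0.93), which feeds oxidation to disulfide isomerases, SEC63 (0.47), a subunit of the ER translocation channel, and HERPUD1 (0.32), a scaffold of ER-associated degradation, with the A form, and ERO1A (1.04), CREB3L2 (-0.52) and MBTPS2 (-0.60) with the G form. SEC63 rose with the G form too (0.38), CREB3L2 also fell with the A form (-0.18), and MBTPS2 passed in the other direction with it (0.28). MBTPS2 encodes site-2 protease, which cuts ATF6 to its active form, and CREB3L2 a factor cut in the same way. MBTPS2 was higher with the A form than with the G form (0.88), as were KDELR3 (0.55), a receptor that retrieves ER proteins, and CREB3L2 (0.34). The other 2 probe sets of CREB3L2 gave -0.10 and -0.08 with the G form. On the mean of its probe sets it was -0.23 with the G form, and the forms no longer passed against each other (0.18, adjusted p = 0.121). Of 3 tested ERO1A probe sets, 1 did not move (0.09 and 0.03). Between the forms 21.4% of this list passed, against 18.3% of all features. The 7 calls with the A form fell to 3, 2 and 3 without A replicate 2, A replicate 3 and control replicate 3, and the 6 between the forms became 10 without control replicate 1. HERPUD1 no longer passed without A replicate 1 or A replicate 3 (adjusted p 0.0523 and 0.0562).

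Of 26 other ATF4 target genes tested, 5 rose and 4 fell with the A form and 4 rose and 3 fell with the G form. That is 34.6% and 26.9% passing, against 20.8% and 24.9% of all features. SLC7A11, the cystine transporter that pairs with SLC3A2, fell with the A form by 2.07-fold (log2 difference -1.05, adjusted p = 1.80e-06). The next were DDIT4 (0.55), an inhibitor of mTORC1, and SQSTM1 (-0.37), an autophagy receptor. With the G form JDP2 (0.95), GDF15 (0.77) and GADD45A (0.51) led, a transcription factor, a stress cytokine and a growth arrest protein. All 3 rose with the A form as well (0.50, 0.51 and 0.35). Between the forms DDIT4 (0.91) and VEGFA (0.47) were higher and SLC7A11 (-0.86) lower with the A form. In that comparison 3 of the 26 were higher and 5 lower with the A form, 30.8% against 18.3% of all features. Their median was -0.01. These 8 calls between the forms became 5 without A replicate 1 or without G replicate 3. The second, dimmer probe set of JDP2 gave 0.04 with the G form.

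The cytosolic tRNA synthetases, many of which ATF4 is known to raise, were mostly lower among those that passed: of 17 tested, 5 fell and none rose with the A form (limma; none was higher at an unadjusted p under 0.05), and 4 fell and 1 rose with the G form. With the A form YARS1 (-0.27), RARS1 (-0.44) and AARS1 (-0.43) led, and with the G form GARS1 (-0.32), VARS1 (-0.39) and YARS1 (-0.25). AARS1 (-0.38 with the G form) and VARS1 (-0.25 with the A form) fell with both. RARS1 (-0.56) and EPRS1 (-0.27) were lower and GARS1 (0.27) higher with the A form than with the G form. With each form 29.4% of the 17 passed, against 20.8% and 24.9% of all features, and their median was -0.08 and -0.00. Between the forms 29.4% passed as well, against 18.3% of all features. These counts moved with single arrays: 5 became 3, 2 and 3 without A replicates 1, 2 and 3 in turn, and with the G form 5 calls became 2 and 3 without G replicates 2 and 3. Between the forms 5 calls became 2 without any A replicate, G replicate 2 or G replicate 3 and 3 without G replicate 1; EPRS1 no longer passed without any single A or G replicate (adjusted p from 0.054 to 0.0998), RARS1 with the A form did not without A replicate 2 (0.0523), and YARS1 with the G form did not without G replicate 2 (0.0537). YARS1 passed with neither form on the mean of its probe sets (adjusted p 0.518 and 0.965).

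Of 20 genes for eIF2, its kinases, exchange factor and phosphatases, 1 rose and 4 fell with the A form. With the G form 2 rose and 4 fell. These are 25% and 30% passing, near the 20.8% and 24.9% of all features. Between the forms 10% passed, against 18.3% of all features. PPP1CC, a catalytic subunit of protein phosphatase 1, which PPP1R15A brings to eIF2, rose 3.13-fold with the A form (1.65, adjusted p = 8.79e-09) and 3.12-fold with the G form (1.64, adjusted p = 9.86e-09). PPP1R15B (-0.50), the constitutive partner of that phosphatase, and EIF2B4 (-0.36), a subunit of the exchange factor, fell with the A form. PPP1CB (-0.58), a related catalytic subunit, and EIF2AK4 (-0.41), the kinase GCN2, fell with the G form. Of these, PPP1R15B fell with the G form too (-0.38) and EIF2AK4 with the A form (-0.31). PPP1CB (0.72) was higher and EIF2B5 (-0.32) lower with the A form than with the G form. Without A replicate 3 the 5 calls with the A form became 3, and without control replicate 2 the 6 with the G form became 10. Between the forms 2 calls became 5 without control replicate 1 and 1 without A replicate 1, A replicate 2 or G replicate 2, where EIF2B5 was lost (adjusted p from 0.0527 to 0.0657).

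Of 19 listed heat shock genes of cytosol and mitochondria, a protein-folding response outside the ER, 15 were tested. HSPA1A, HSPA1B, HSPA8 and HSF2 were not. With the A form 2 were lower and with the G form 3, and none passed higher (limma, 1 and 2 higher at an unadjusted p under 0.05). That is 13.3% and 20% passing, below the 20.8% and 24.9% of all features. Between the forms 26.7% passed, against 18.3% of all features. After median centring 2 rose with the G form. HSPH1 (-0.32) and HSPB8 (-0.23) fell with the A form, and HSPB8 (-0.45), HSF1 (-0.41), the master factor of this response, and BAG3 (-0.24) with the G form. CHORDC1 (-0.35) and HSPH1 (-0.31) were lower and BAG3 (0.22) higher with the A form than with the G form. Counts here moved when single arrays were left out. With the A form 2 became none without A replicate 1 or A replicate 2 (limma, 3 and 3 lower at an unadjusted p under 0.05). Without control replicate 3 the 2 became 1. With the G form 3 became 5 without control replicate 2. Without A replicates 1 and 2 in turn, HSPH1 with the A form had an adjusted p of 0.0514 and 0.0508 (limma). Its log2 differences were then -0.31 and -0.32, and those of HSPB8 -0.22 and -0.22. HSPB8 had an adjusted p of 0.0696 to 0.0902 without A replicate 1, A replicate 2 or control replicate 3. BAG3 with the G form had 0.0746 without G replicate 2. Between the forms 4 calls became 0 without A replicate 2 (limma; 2 higher and 2 lower at an unadjusted p under 0.05), 2 without G replicate 1 and 1 without any other single A or G replicate.

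Of 11 cell death genes linked to ER stress, 3 rose and 2 fell with the A form and 4 rose and 2 fell with the G form. That is 45.5% and 54.5% passing, against 20.8% and 24.9% of all features. CASP4, an inflammatory caspase placed at the ER, rose 1.63-fold with the A form (0.70, adjusted p = 0.000221) and 2.86-fold with the G form (1.51, adjusted p = 2.82e-07), and its second, dim probe set gave 0.01 and 0.10 (0.36 and 0.81 on the mean of the 2). BAX (0.59), which opens the mitochondrial outer membrane, rose with the A form and with the G form (0.47, adjusted p = 0.0178). BCL2L1 (-0.47 and -0.49), which opposes BAX, fell with both, while 1 of its 4 tested probe sets was higher with both (0.64 and 0.44). TNFRSF10B, the death receptor DR5 and a known CHOP target, fell 2.32-fold with the G form (-1.21, adjusted p = 7.21e-08), where DDIT3 rose; it was higher with the A form than with the G form (1.28). Its other 3 tested probe sets gave -0.00, -0.52 and -0.52 with the G form, and the mean of the probe sets -0.56 with the G form and 0.65 between the forms, both of which passed. CASP4 (-0.81) and PMAIP1 (-0.57), the BH3 protein NOXA, were lower with the A form than with the G form.

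**Figure D4:**
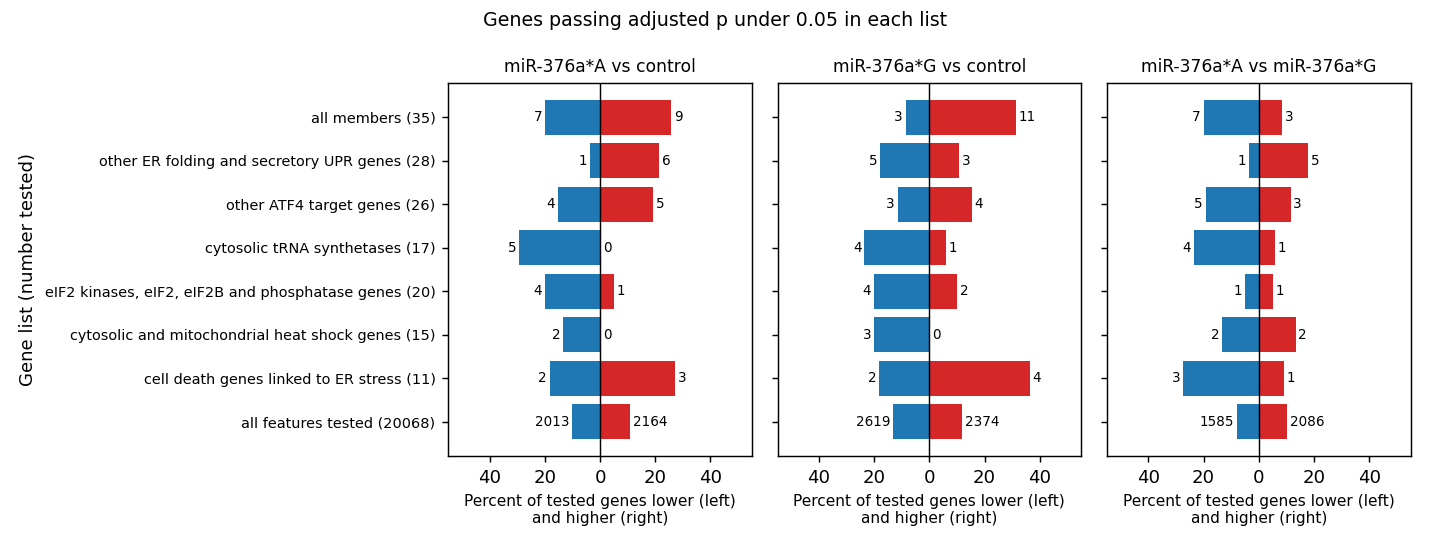
Percent of tested genes in each list that passed lower (left of 0, blue) and higher (right, red) in the 3 comparisons, with counts beside the bars and the number tested in brackets; the lowest bars are all 20068 features. Members have 11 genes higher and 3 lower with the G form, while the tRNA synthetases lie mostly left of 0 in all 3 panels.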

How the data were processed

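Total RNA of 9 U87 cultures was labelled and hybridised to Affymetrix arrays. The authors deposited 1 linear signal intensity per probe set and array. Per the submitters' processing notes the software was GCOS 1.4.0.036; its signal algorithm, scaling target and any genome build are not stated in those sources. The common scale (trimmed means of 100.009 to 100.011) hides any change shared by all transcripts.

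The table holds 54675 probe sets, among them 62 array controls, which were dropped. In the platform annotation 41091 of the rest carried 1 symbol, 1801 carried several and 11721 carried no symbol. Symbols were set against RefSeq (GRCh38.p14) and 0 changed. Values were taken as log2(signal + 16), and probe sets with a mean under the 40th percentile (4.77) were dropped. For a gene the probe set of highest mean was kept, and each unnamed probe set stood for itself, which gave 20068 features. They were fitted with limma 3.58.1 (R 4.3.3) with an intensity trend on all 9 arrays (6 residual degrees of freedom), and p-values were adjusted by the Benjamini-Hochberg method over all features. On simulated data of 20068 features with 200 changed by a known amount, the test recovered 87%, 83% and 85% of 1.5-fold changes in the 3 comparisons (A form against control, G form against control, A form against G form), with 7.46%, 8.04% and 3.65% false calls. The simulation changed far fewer features than passed in the data (4177, 4993 and 3671). Most member differences were under 1.5-fold, so these recovery rates do not cover them. With 3 arrays per group their number limits the precision. The median SE was 0.101 on the log2 scale. Promoters were searched with Python 3.11.15.

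The members and the other gene lists were chosen with earlier results of these data known. Members were described on every array where they passed in a comparison without overlap of the groups, and genes of other lists were named where they were among the 3 of smallest p that passed. The signals of SDF2L1 and the control signals of PPP1R15A were added after their values were seen. The 20 alternatives covered scaling, offset, filter, trend, choice of probe set, replicate block, groups fitted, array weights and the absence of each array. Gene coordinates are not given, since the files name no build; those of promoters and of the miRNA are RefSeq's.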

Additional observations from a re-analysis of the deposited data

Results flagged for a closer look

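HSPA5, TRIB3, CHAC1, PSAT1 and STC2 differed between the 2 forms in the direct test, and their differences from the control had opposite signs. The A form minus the G form was 0.18 for HSPA5, 0.42 for TRIB3, -0.66 for CHAC1, -0.30 for PSAT1 and -0.39 for STC2 on the log2 scale. For TRIB3, CHAC1 and STC2 the difference of the A form from the control passed and that of the G form did not, for PSAT1 the reverse held, and for HSPA5 neither passed.

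Several probe sets that were not chosen for their gene passed against the control where the chosen one did not. For CANX, probe sets 208852_s_at, 208853_s_at and 238034_at gave 0.46, 0.38 and 0.67 with the G form. For STC2, 203439_s_at gave 0.73 with the G form, and for SESN2, 223196_s_at gave 0.45 with the G form. ERN1 was higher by its probe set 235745_at with both forms, by 0.33 with the A form and 0.38 with the G form. HSP90B1 was higher by 216450_x_at with the G form (0.30). Lower with the G form were HSPA5 by 230031_at (-0.67), DNAJB9 by 1554462_a_at (-0.27) and PDIA4 by 208658_at (-0.23).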

How the results depend on the processing

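Of the 16 members that passed with the A form against the control, 5 passed under all 20 alternatives (ATF4, XBP1, EIF2AK3, SLC7A5 and SLC3A2), as did 8 of 14 with the G form (DDIT3, ATF4, ATF6, XBP1, ASNS, PHGDH, MTHFD2 and NUPR1) and 9 of 10 between the forms. Lost under 6 or more were PDIA6, SESN2, PHGDH and MTHFD2 with the A form, DNAJB11, MANF, PSAT1, SHMT2 and CEBPB with the G form, and HSPA5 between the forms. No member that passed changed sign; outside the members, HSPB8 with the A form was -0.23, and 0.015 on the mean of its probe sets. Members passing with the A form were 9 with no filter and 10 with only those 2 groups fitted, and with the G form 9 without the intensity trend and 24 with array weights. Between the forms they were 17 with only the 2 groups fitted and 19 with array weights. Array weights, whose estimate did not converge and gave control replicate 3 a weight of 8.16, called 8926, 9466 and 6354 features in the 3 comparisons. Leaving out 1 array gave 8 to 15 members with the A form, 8 to 14 with the G form and 9 to 17 between the forms, and 2829 to 4693, 3481 to 5425 and 2331 to 5248 features. A lone omission leaves 2 arrays in a group, and its part in the changed counts was not tested. Without control replicate 1 more features passed against the control than with all arrays. They were 4532 against 4177 with the A form and 5320 against 4993 with the G form.

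The labels do not say whether the replicate numbers pair the samples. Residuals of same-numbered arrays correlated at -0.11 to 0.07, and 0 of 9 pairs were over 0.1. Of the 9 arrays, 3 correlated best with an array of their own number. These values cannot show how the cultures were set up. With the replicate block 12, 12 and 9 members passed in the 3 comparisons, of which 12, 11 and 9 also passed without it. Mean signals of members were above the filter of 11.3. The lowest, CHAC1, had a mean of 37.0 over the 9 arrays and read 19.3 to 27.7 with the A form.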
